A study of Mus musculus with 55 samples.

Results

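Voltage-gated and potassium channel genes were examined in the mouse heart. Members were the genes whose symbols begin with Kcn, Scn and a digit, Cacn, or Hcn and a digit, which name potassium, sodium, calcium and pacemaker channels and their auxiliary subunits. Of 121 such genes read by at least 1 probe set specific to them, 23 exceeded a signal of 20 on the linear scale in at least 3 of 55 arrays and were analysed, against 8238 of 18194 genes in the whole series. The study gave male Sv129 mice, 9 to 12 weeks old by one label and 2 to 6 months by another, a gavage of 400 µL after a 4 h fast and took the heart 6 h later. Wild-type (WT) mice were 129S1/SvImJ, and mice lacking the nuclear receptor PPARα (KO) were 129S4/SvJae. All mice had spent 2 weeks on a run-in diet of modified AIN76A with olive oil in place of corn oil. Control mice received carboxymethyl cellulose at 0.5% alone, although another label reads none, and agonist mice received the PPARα agonist Wy14643 at 10 mg/mL in that vehicle. The other mice received a synthetic triglyceride: triolein (acyl chains of 18 carbons with 1 double bond), trilinolein (18 carbons, 2 double bonds), trilinolenin (18 carbons, 3) or tridocosahexaenoin (22 carbons, 6). There were 3 WT hearts in the control group, 4 each with triolein, trilinolenin and Wy14643, and 5 each with trilinolein and tridocosahexaenoin. Every KO group had 5, with 1 array per heart.

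A heart muscle cell fires when sodium channels open, holds its plateau while L-type calcium channels admit calcium, and returns to rest as potassium channels open. In the mouse, fast outward currents carried by Kv4 and Kv1.5 channels end the action potential early, while the KCNQ1 and hERG currents that dominate repolarization in larger mammals are small in the adult. Inward rectifiers hold the resting potential, ATP-sensitive channels open when cellular energy falls, and auxiliary subunits set how many channels reach the membrane and how fast they gate. PPARα, a fatty acid sensor, drives genes of fat oxidation in the heart.

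For the 3 genes with the widest called difference between genotypes among members with an entry in the RefSeq promoter table, the 250 bases upstream of the annotated start are shown, because these genes fell (Kcnt2, Kcna5) or rose (Kcnd2) in the hearts without PPARα. Sequences are 5′ to 3′ on the gene's own strand in GRCm38.p6. Kcnt2 lies on the plus strand at chr1:140245468-140245717, Kcna5 on the minus strand at chr6:126535556-126535805 and Kcnd2 on the plus strand at chr6:21215096-21215345. Capitals mark the letters of CCAAT or GGGCGG on either strand.
Kcnt2: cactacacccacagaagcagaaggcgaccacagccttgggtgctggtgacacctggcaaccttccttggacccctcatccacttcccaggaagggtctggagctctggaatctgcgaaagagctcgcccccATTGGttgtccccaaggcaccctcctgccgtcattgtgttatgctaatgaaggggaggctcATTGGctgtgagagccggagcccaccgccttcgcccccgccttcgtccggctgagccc
Kcna5: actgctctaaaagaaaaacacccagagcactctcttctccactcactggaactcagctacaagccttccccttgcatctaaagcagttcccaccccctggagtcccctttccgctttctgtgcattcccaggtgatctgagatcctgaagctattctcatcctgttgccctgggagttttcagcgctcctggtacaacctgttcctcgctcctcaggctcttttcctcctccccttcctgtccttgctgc
Kcnd2: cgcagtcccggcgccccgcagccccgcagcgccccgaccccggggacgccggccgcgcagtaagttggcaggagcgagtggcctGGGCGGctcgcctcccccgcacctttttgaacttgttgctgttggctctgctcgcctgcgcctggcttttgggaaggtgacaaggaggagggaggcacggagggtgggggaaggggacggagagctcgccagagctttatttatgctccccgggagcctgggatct
The Kcnt2 window held CCAAT 2 times, read as its reverse complement, the Kcnd2 window held GGGCGG 1 time, and the Kcna5 window held neither. Guanine and cytosine made up 61.6%, 53.2% and 68.8% of the Kcnt2, Kcna5 and Kcnd2 windows. The letters AGGTCA, which form each arm of a PPAR response element, were in 0 of the 18 promoters listed for 15 of the channel genes, against 14.0% of all 32851 promoters of this length. The direct repeat of these letters with a single base between was in 0 of 18 and in 0.0335% of all. CCAAT was in 5 of the 18 (27.8%, against 33.8% of all) and GGGCGG in 8 (44.4%, against 32.7%), both strands searched in each case. A match or its absence describes only these letters in these windows.

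The median log2 signal of an array lay between 2.55 and 2.61, array pairs correlated at 0.988 to 0.996, and 29.0% to 30.2% of probe sets exceeded the minimum on an array. Ppara itself ranged from 6.93 to 7.61 in KO hearts and from 7.38 to 8.59 in WT hearts, and its log2 mean was lower in KO by 0.77 ± 0.05 (SE, n = 30 and 25 hearts, limma adjusted p = 2.98e-18). Where its probes lie relative to the deletion is not given in the sources used here. All 8 markers of working heart muscle (such as Myh6 and Tnnt2) exceeded the minimum, with a summed linear signal of 124000 to 135300 per heart. Of 8 skeletal muscle markers 0 did. Of 6 node and conduction markers only Tbx3 did, and of 6 atrial markers 5 did, their summed level varying between 4751 and 19800 from heart to heart.

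Members over the minimum came from most channel families. Of pore-forming voltage-gated potassium channels 6 of 22 passed (Kcna5, Kcna7, Kcnd2, Kcnd3, Kcnh2 and Kcnq1), and of their auxiliary or silent subunits 3 of 21 (Kcnip2, Kcng2 and Kcnv2). Inward rectifiers gave 5 of 15 (Kcnj3, Kcnj5, Kcnj8, Kcnj11 and Kcnj14), 2-pore potassium channels 2 of 12 (Kcnk3 and Kcnk6), and calcium- or sodium-activated potassium channels 2 of 13 (Kcnn2 and Kcnt2). Among calcium channels, 1 of 9 pores (Cacna1c), 1 of 3 beta subunits (Cacnb2), 1 of 4 alpha2delta subunits (Cacna2d1) and 0 of 8 gamma subunits passed. Sodium channels gave 1 of 8 pores (Scn7a) and 0 of 3 beta subunits, and 0 of 2 pacemaker channel genes passed. The remaining member, Kcnq1ot1, is a noncoding RNA antisense to Kcnq1 that the symbol rule takes in and is not a channel.

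Among 30 channel genes listed by name for their known place in the heart, 15 passed. Another 9 did not (Scn4b, Cacna1g, Cacna1h, Hcn2, Kcne1, Kcnj2, Kcnj12, Kcnab1 and Kcnmb1), although Kcnj2 encodes the classical ventricular inward rectifier. The others were not analysed here. A low signal of a probe set need not mean a low level of the mRNA. The members nearest the minimum were Kcnv2 (over it on 18 arrays), Kcnn2 (17) and Kcnt2 (28), whose log2 values on the third highest array were 4.65, 4.75 and 4.89 against a minimum of 4.32. Kcnt2 exceeded it on 19 WT and 9 KO arrays and Kcnn2 on 5 and 12, but Kcnv2 on 17 WT and 1 KO array. Kcnv2 thus entered through the WT hearts and had to read lower in KO hearts, so its values between genotypes are given as a description with no test. Just outside were Kcne4, Kcnn1 and Kcne1, at 3.92, 3.91 and 3.78 and over it on 0 arrays. The other 20 members exceeded the minimum on all 55 arrays.

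**Figure D1:**
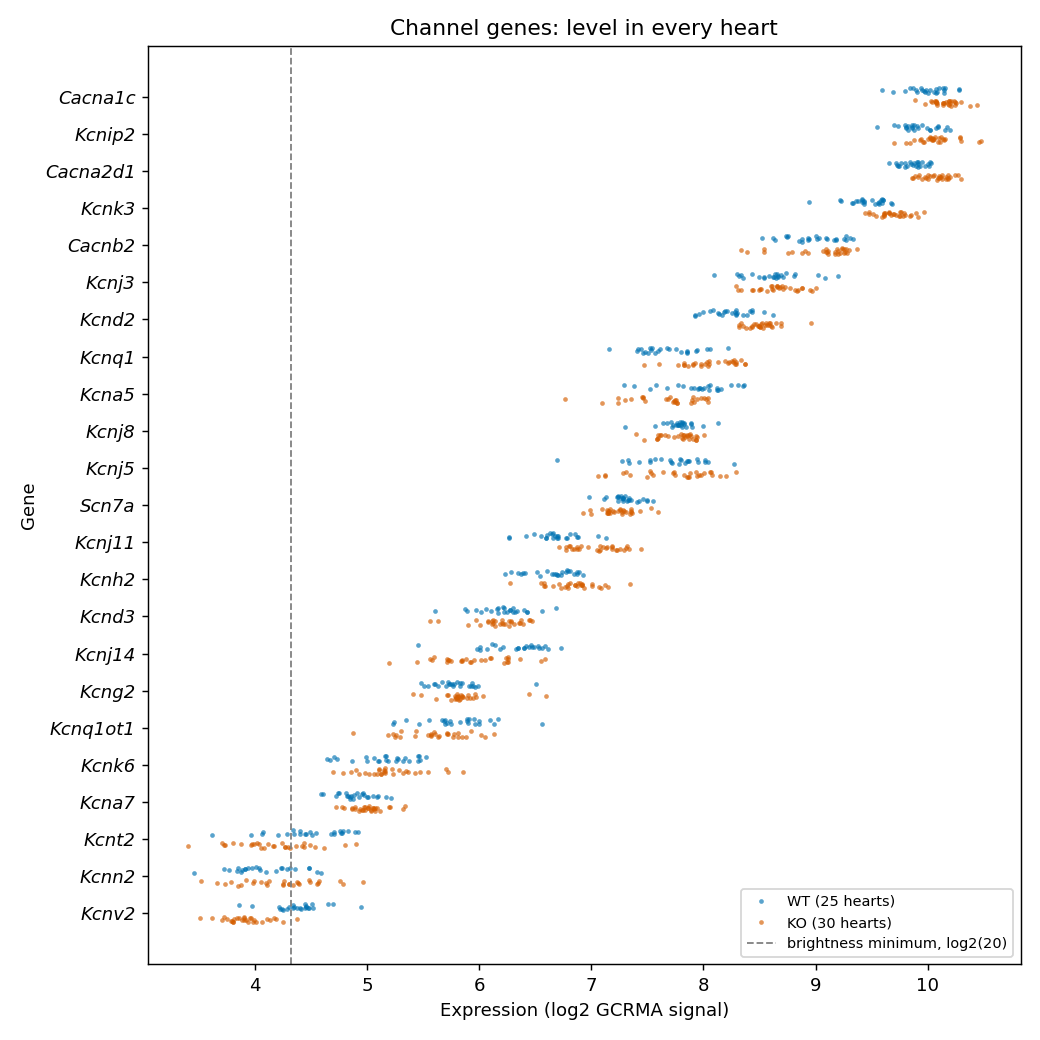
Log2 GCRMA signal of each of the 23 genes (vertical axis) in every heart, 25 WT hearts (blue) above 30 KO hearts (orange), with the minimum of 4.32 as a dashed line. Kcnt2, Kcnn2 and Kcnv2 straddle the line and the other 20 lie above it on every array; signals of different genes come from different probes and are not compared.

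Several channel genes differed modestly between the genotypes, as did many genes of the whole series. Averaged over the 6 gavages, limma called 12 of 22 members other than Kcnv2 at an adjusted p under 0.05 (54.5%). Of all genes tested, 39.0% were called. Of the 12, 8 were higher in KO (22.9% of all genes were) and 4 lower (16.1%). Among the 4 lower, Kcnq1ot1 is a noncoding RNA, not a channel, and its probe sets differed in direction. Kcnv2 entered through the WT hearts and had to read lower in KO hearts. With it the count was 13 of 23 (56.5%), 5 of them lower. The median difference of the 22 without Kcnv2 was 0.06 on the log2 scale, against 0.02 over all genes. Their median absolute difference was 0.15, against 0.08. In whole hearts, fewer cells of a type and less RNA per cell cannot be told apart. Because the labels put the genotypes on different substrains, the loss of PPARα and the substrain cannot be told apart in any difference between KO and WT.

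Some markers of the heart's cell types were also called between the genotypes, as were 39.0% of all genes (22.9% higher and 16.1% lower in KO). Of 6 macrophage markers 4 were higher in KO hearts and 1 was lower (median 0.24), with Mrc1 higher by 0.34 and Lyz2 lower by 0.19, and their summed linear signal was 1228 to 1811 in KO and 1306 to 1809 in WT hearts. Of 7 fibroblast markers 1 was higher (Postn, 0.28) and 3 were lower (Pdgfra, Lum and Dcn; median -0.03 over the 7), with sums of 5385 to 6838 in KO and 5687 to 7824 in WT hearts. Of 7 endothelial markers 1 was higher (Kdr, 0.66) and 2 were lower (Tek and Pecam1; median 0.04), with sums of 1538 to 2030 and 1577 to 1954. Of 6 smooth muscle markers 2 were higher (Cnn1 and Smtn; median 0.08), with sums of 1132 to 2469 and 1127 to 2084, and of 8 markers of working heart muscle 2 were higher (Ryr2 and Pln; median 0.02). Of 2 brown adipocyte markers over the minimum (Cidea and Ppargc1a) 1 was higher and 1 lower, with differences of 0.40 and -0.77. The sums of the genotypes overlapped in each of these lists, which does not show equal numbers of cells. The part of these markers in the channel gene differences was not tested.

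**Figure D2:**
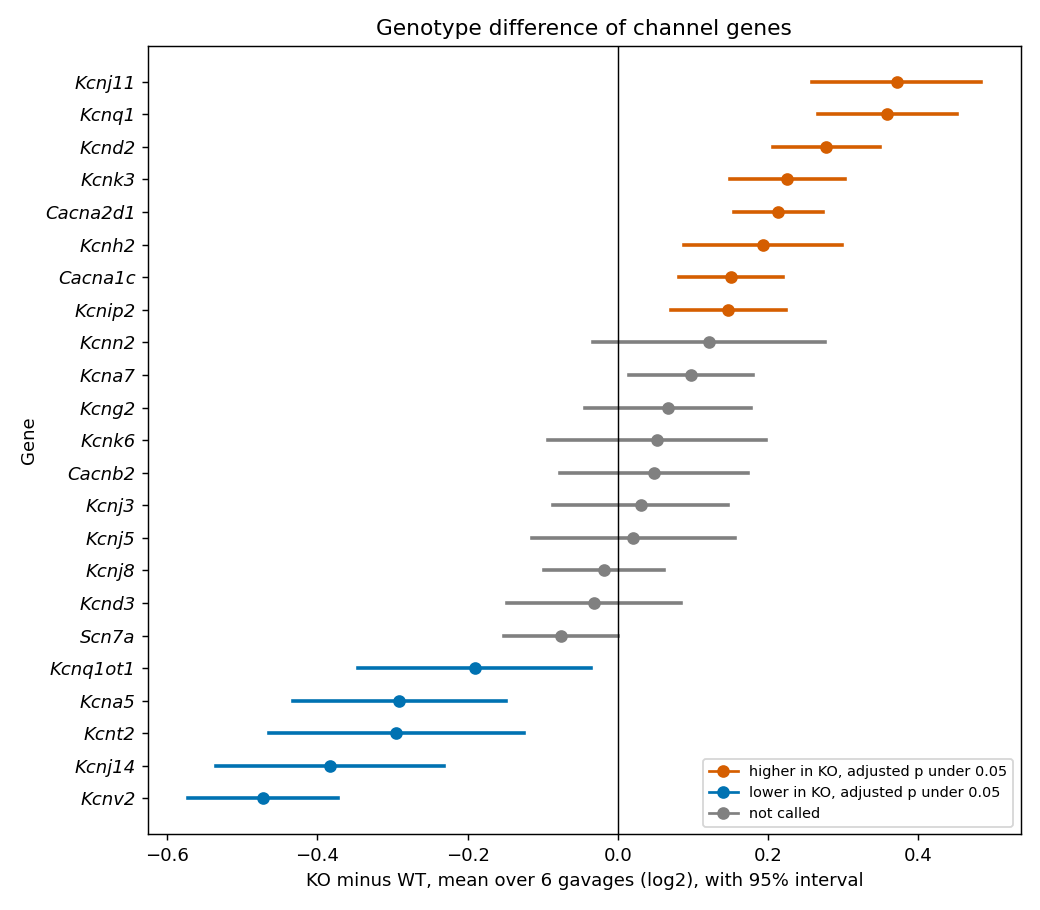
Log2 difference of KO minus WT averaged over 6 gavages for each gene, with its 95% interval from limma; orange and blue mark genes past an adjusted p of 0.05. The differences run from -0.47 (Kcnv2) to 0.37 (Kcnj11). Of the 22 genes other than Kcnv2, 8 were called higher and 4 lower. Kcnv2, also marked blue, entered through the WT hearts and had to read lower in KO hearts, so its mark is no test.

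Kcnq1, the pore of the slow delayed rectifier, ranged from 7.47 to 8.37 (median 8.04) in 30 KO hearts and from 7.16 to 8.21 (median 7.61) in 25 WT hearts. The ranges overlapped, and the KO mean was higher in all 6 gavages, by 0.36 ± 0.05 on average (limma adjusted p = 9.88e-09). Kcnd2, the Kv4.2 pore of the fast transient outward current, ranged from 8.32 to 8.96 (median 8.51) in KO and from 7.92 to 8.62 (median 8.26) in WT hearts. All 30 KO hearts lay above the WT median, and the mean was higher by 0.28 ± 0.04 (adjusted p = 1e-08). Its partner Kcnip2, which brings Kv4 channels to the membrane and slows their inactivation, was higher by 0.15 ± 0.04 (adjusted p = 0.00162), also in 6 of 6 gavages. Kcnd3, the other Kv4 pore here, differed by -0.03, with a 95% interval from -0.15 to 0.08 that leaves room for a small change either way. Kcnh2, the hERG pore, was higher in 5 of 6 gavages, by 0.19 ± 0.05 on average (adjusted p = 0.0027). Its difference was 0.54 in Wy14643 hearts, 0.34 in tridocosahexaenoin hearts and between -0.02 and 0.10 in the other 4 groups.

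Kcna5, the Kv1.5 pore of the ultrarapid current, went the opposite way. It ranged from 6.77 to 8.04 (median 7.74) in KO hearts and from 7.29 to 8.36 (median 7.99) in WT hearts, and 26 of 30 KO hearts lay below the WT median. The mean was lower in KO by 0.29 ± 0.07 (adjusted p = 0.000837), in 5 of 6 gavages. The difference by gavage ran from -0.67 in controls to 0.10 with triolein, where the order turned. Kcna7, a Kv1.7 pore described mainly in muscle, differed by 0.10 ± 0.04 (adjusted p = 0.0523), and 15 of the 55 fits that left out 1 heart called it (0.08 to 0.12 over all 55).

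**Figure D3:**
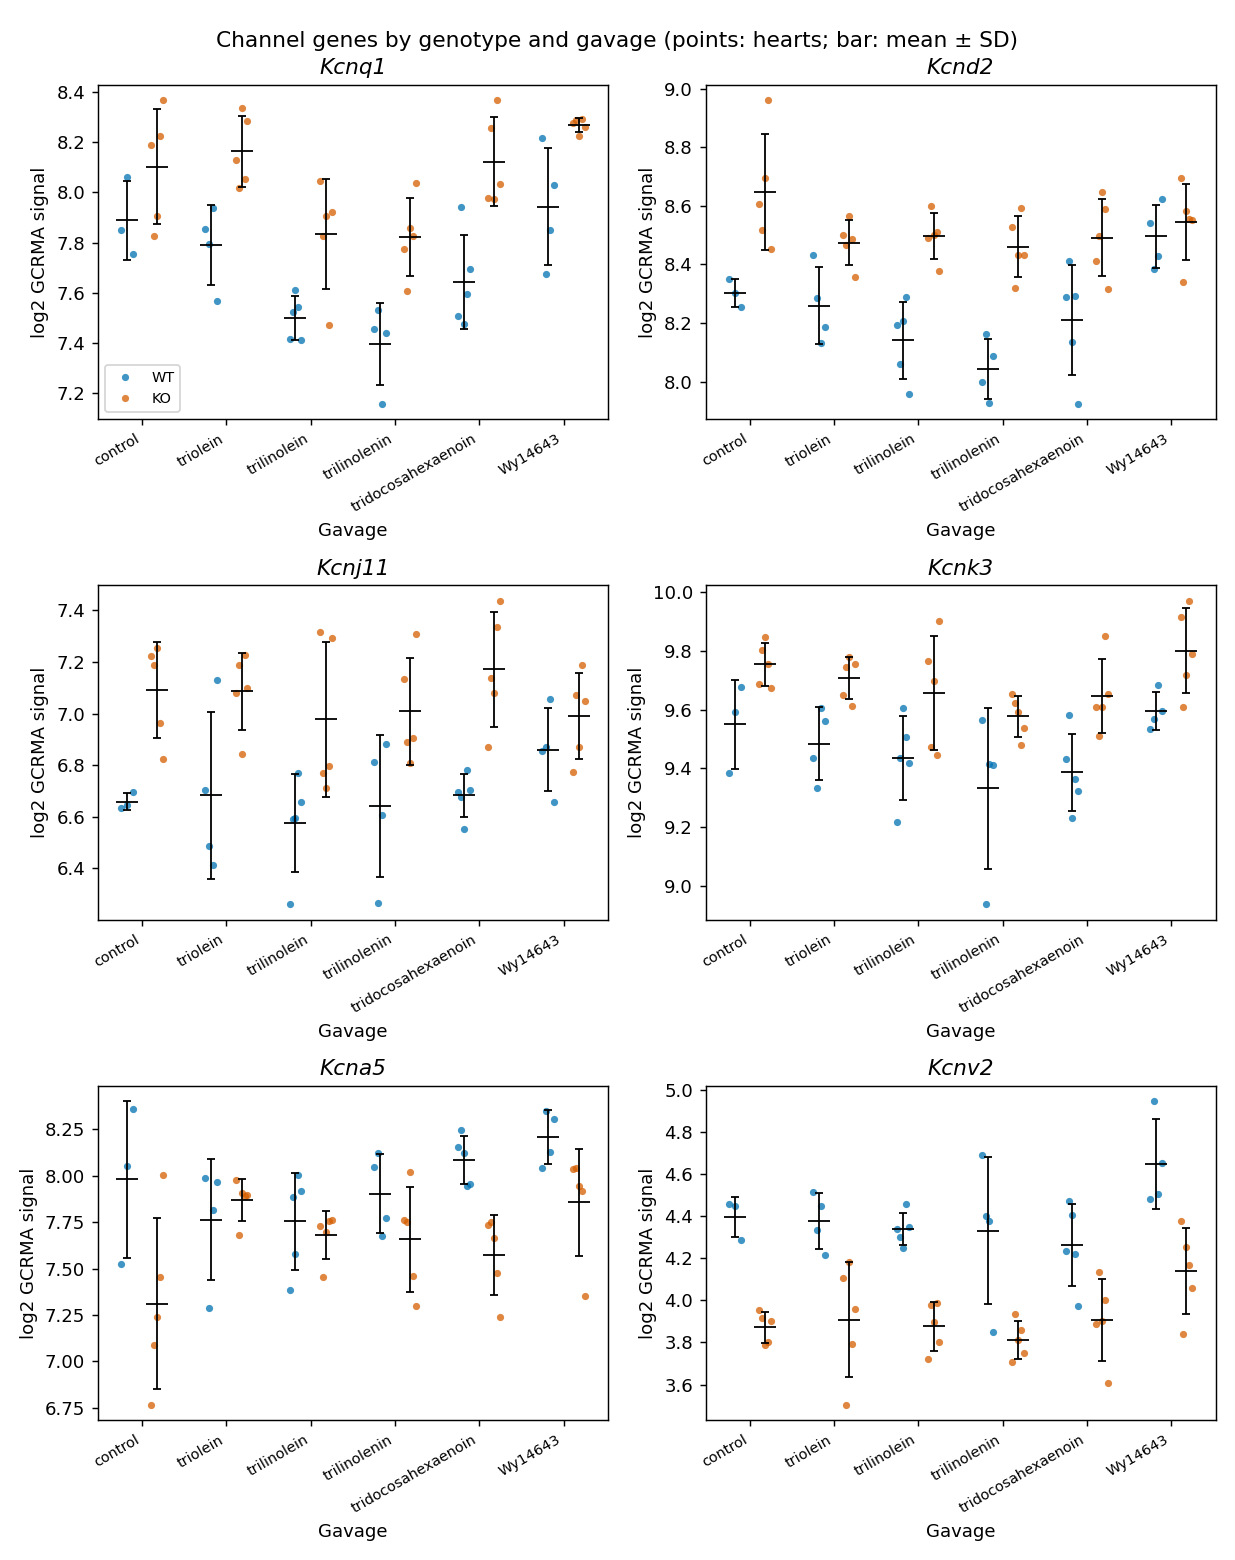
Log2 signal of 6 channel genes in each gavage group (points are hearts, WT blue and KO orange; bars are means ± SD; 3 to 5 hearts per group). The KO mean of Kcnq1, Kcnd2, Kcnj11 and Kcnk3 is above the WT mean in 6 of 6 gavages and that of Kcnv2 below it, while Kcna5 is lower in KO in 5 of 6.

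Among channels that set the resting potential, Kcnj11, the Kir6.2 pore of the ATP-sensitive channel, ranged from 6.71 to 7.44 (median 7.08) in KO and from 6.26 to 7.13 (median 6.68) in WT hearts. It was higher in 6 of 6 gavages and in 30 of 30 KO hearts set against the WT median, by 0.37 ± 0.06 (adjusted p = 3.97e-07), a fold of 1.29. A second Kcnj11 probe set gave 0.39 ± 0.08 (adjusted p = 4.3e-05). Abcc8, the SUR1 regulatory subunit of ATP-sensitive channels, was higher by 0.36 ± 0.05 (adjusted p = 1.29e-08). Abcc9, the SUR2 subunit, was lower by 0.07 ± 0.02 (adjusted p = 0.0229), and Kcnj8, the other pore that SUR subunits join, differed by -0.02 with an interval from -0.10 to 0.06. Kcnk3, the TASK-1 background channel, was higher by 0.23 ± 0.04 (adjusted p = 3.92e-06), with 30 of 30 KO hearts above the WT median. Of its other probe sets 1 was also called (0.31 ± 0.11, adjusted p = 0.0279) and 1 was not (0.16 ± 0.09, adjusted p = 0.146). Kcnj14, the Kir2.4 inward rectifier, ranged from 5.20 to 6.58 (median 5.92) in KO and from 5.45 to 6.73 (median 6.39) in WT hearts, and was lower in 6 of 6 gavages, by 0.38 ± 0.08 (adjusted p = 5.49e-05). Kcnj3 and Kcnj5, which together form the acetylcholine-gated channel of atrial and nodal cells, differed by 0.03 and 0.02, with intervals from -0.09 to 0.15 and from -0.11 to 0.16. Kcnk6, a TWIK-2 channel, differed by 0.05, with an interval from -0.09 to 0.20.

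Both called calcium channel genes were higher in KO hearts. Cacna2d1, the alpha2delta subunit that carries calcium channels to the surface, ranged from 9.86 to 10.30 (median 10.10) in KO and from 9.65 to 10.03 (median 9.88) in WT hearts, a mean difference of 0.21 ± 0.03 in 6 of 6 gavages (adjusted p = 5.65e-08). Of its other probe sets, 2 were called in the same direction (0.23 and 0.31) and a dim one was not (0.06 ± 0.08, adjusted p = 0.557). Cacna1c, the L-type pore, was higher by 0.15 ± 0.03 in 6 of 6 gavages (adjusted p = 0.000442). Its second probe set gave 0.08 ± 0.05 (adjusted p = 0.219). Cacnb2, the beta subunit that partners them, differed by 0.05, with an interval from -0.08 to 0.17. Scn7a, a sodium-sensing relative of the sodium channels that is not voltage-gated, differed by -0.08 ± 0.04 (adjusted p = 0.108).

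Of the dimmest genes, Kcnv2, a silent Kv8.2 subunit that forms no channel alone, ranged from 3.50 to 4.37 (median 3.90) in KO and from 3.85 to 4.95 (median 4.40) in WT hearts, with 30 of 30 KO hearts below the WT median and a mean difference of -0.47 ± 0.05, which the choice of members helped to fix. Its KO mean lay below the minimum, as did that of Kcnt2, a sodium-activated potassium channel that was lower by 0.29 ± 0.08 in 6 of 6 gavages (adjusted p = 0.00443), so these sizes are not exact. Kcnq1ot1 was lower by 0.19 ± 0.08 on its brightest probe set (adjusted p = 0.0455), a call lost in 30 of the 55 fits that left out 1 heart (-0.23 to -0.17), and by 0.21 ± 0.06 on a second (adjusted p = 0.00358). The third, dim probe set was higher by 0.39 ± 0.09 (adjusted p = 0.000817), so the files give no single direction for this RNA. Kcnn2, a small-conductance calcium-activated channel, and Kcng2, a silent Kv6.2 subunit, differed by 0.12 and 0.07, with intervals from -0.03 to 0.28 and from -0.04 to 0.18.

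In control hearts alone, with 5 KO and 3 WT mice, 3 of 22 members other than Kcnv2 were called (13.6%). Of all genes 3.62% were, and with Kcnv2 the count was 4 of 23 (17.4%). Cacna2d1 was higher by 0.33 ± 0.08 (adjusted p = 0.00623). Kcnd2 read 8.45, 8.52, 8.61, 8.70 and 8.96 in KO controls and 8.26, 8.30 and 8.35 in WT controls, without overlap, higher by 0.34 ± 0.09 (adjusted p = 0.024). Kcna5 read 6.77, 7.09, 7.24, 7.46 and 8.00 in KO and 7.53, 8.05 and 8.36 in WT controls, which overlap, lower by 0.67 ± 0.19 (adjusted p = 0.0295). Kcnv2 read 3.79 to 3.95 in KO and 4.29 to 4.46 in WT controls, without overlap, all 5 KO values under the minimum. Kcnj11 read 6.83, 6.97, 7.19, 7.22 and 7.25 in KO and 6.63, 6.65 and 6.69 in WT controls, without overlap, but its difference of 0.43 ± 0.15 had an adjusted p of 0.109. A second Kcnj11 probe set gave 0.80 ± 0.20 and was called (adjusted p = 0.0119). The other Kcnd2 probe sets gave 0.33 and 0.24 and were not called (adjusted p = 0.45 and 0.507). Those of Cacna2d1 gave 0.42, 0.41 and 0.20, also not called (adjusted p = 0.107, 0.198 and 0.791). The 4 calls, Kcnv2 included, rest on few hearts. Without any 1 of the 3 WT controls 1 gene was called, and without KO control replicate 3 the count was 2. A fit of the 8 control arrays alone gave 1.

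Of 27 listed channel partners 16 exceeded the minimum, and 6 were higher and 3 lower in KO on average over the gavages (median 0.01, against 0.02 over all genes, of which 22.9% were higher and 16.1% lower). Beside Abcc8, those higher were Rrad, a small GTPase that restrains L-type channels (0.31 ± 0.09, adjusted p = 0.00746), Gja1, connexin 43 of the gap junctions (0.20 ± 0.06, adjusted p = 0.00317), Gpd1l (0.20), Camk2d (0.16) and Atp1b1 (0.10). Beside Abcc9, those lower were Gjc1, connexin 45 (-0.18 ± 0.04, adjusted p = 0.000258), and Nedd4l, a ubiquitin ligase that removes channels (-0.15 ± 0.04, adjusted p = 0.00119). Of 15 listed regulators of channel genes 11 were tested, and 4 were higher and 2 lower, against the same shares of all genes. Irx4, a ventricular homeobox factor, was higher by 0.39 ± 0.07 (adjusted p = 4.94e-06) and its relative Irx3, known for fast conduction, was lower by 0.50 ± 0.06 (adjusted p = 2.11e-09). Nfatc3 was lower by 0.38, and Tbx3, Klf15 and Mef2c were higher by 0.24, 0.21 and 0.15.

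Set against control hearts 6 h after gavage, each gavage called 0 or 1 of 23 channel genes (0% or 4.35%). Of all genes, 0.0607% to 11.9% were called. In WT hearts limma called 0 of 23 with triolein (0.0728% of all genes), trilinolein (1.25%), tridocosahexaenoin (1.86%) and Wy14643 (0.0607%), and 1 with trilinolenin (3.41%). At an unadjusted p under 0.05 the counts were 3, 1, 2, 1 and 5, against 6.4%, 12.6%, 14.8%, 7.45% and 16.7% of all genes. In KO hearts it called 0 with triolein (1.15%), trilinolein (4.32%) and Wy14643 (0.0728%), and 1 each with trilinolenin (11.9%) and tridocosahexaenoin (3.54%), with 4, 4, 2, 8 and 3 at an unadjusted p under 0.05, against 14.7%, 17.4%, 9.88%, 25.5% and 17.6% of all genes. The gavages of a genotype share its control hearts. Some markers of other cell types moved with trilinolenin in KO hearts: 2 of 7 endothelial markers fell (Kdr and Emcn; sums of 1538 to 1811, against 1763 to 2030 in controls), 2 of 7 fibroblast markers fell (Col1a1 and Col3a1; 6021 to 6838, against 6066 to 6756) and 1 of 6 macrophage markers rose (Cd163; 1337 to 1609, against 1239 to 1662). In WT hearts Kdr fell with trilinolenin (endothelial sums of 1698 to 1879, against 1853 to 1874). Their part in the changes of channel genes was not tested. Leaving out 1 heart raised the count to 1 with tridocosahexaenoin in WT hearts (without its replicate 2), to 2 with triolein in KO hearts (without KO control replicate 5) and to 1 with trilinolein in KO hearts (without KO control replicate 5 or KO trilinolein replicate 3).

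In WT hearts Kcnq1 fell with trilinolenin. It read 7.16, 7.44, 7.46 and 7.53 in treated hearts and 7.75, 7.85 and 8.06 in controls, every treated heart below every control, a difference of -0.49 ± 0.13 (n = 4 and 3, adjusted p = 0.0222). The call was lost without WT control replicate 1 (-0.51), WT control replicate 2 (-0.41) or WT trilinolenin replicate 3 (-0.41). With trilinolein Kcnq1 read 7.41, 7.42, 7.52, 7.54 and 7.61, also all below the controls, a difference of -0.39 ± 0.12 (adjusted p = 0.109). In KO hearts its differences were -0.28 ± 0.11 with trilinolenin (adjusted p = 0.0748) and -0.27 ± 0.11 with trilinolein (adjusted p = 0.155).

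In KO hearts Kcnj5, the GIRK4 subunit, fell with trilinolenin. It read 7.06, 7.12, 7.28, 7.53 and 7.63 in treated hearts and 7.72, 7.94, 7.94, 8.06 and 8.14 in controls, without overlap, a difference of -0.64 ± 0.16 (n = 5 and 5, adjusted p = 0.00446) that was called in each of the 10 fits that left out 1 of these hearts. The count of channel genes there was 2 without KO control replicate 1, 2 or 5 or KO trilinolenin replicate 3, and 4 without KO trilinolenin replicate 4. In WT hearts it read 7.33, 7.33, 7.52 and 7.78 with trilinolenin against 7.86, 7.94 and 8.02 in controls, likewise without overlap, a difference of -0.45 ± 0.19 (adjusted p = 0.199). Kcnn2 fell with tridocosahexaenoin in KO hearts, by 0.64 ± 0.18 (adjusted p = 0.0315), from 4.05 to 4.79 in controls to 3.52 to 4.49 in treated hearts. These ranges overlap and the treated mean of 3.87 is under the minimum, so the size is not exact. That call was lost in 6 of the 10 fits that left out 1 of its hearts: KO control replicates 2, 3 and 4 (-0.67, -0.58 and -0.57) and KO tridocosahexaenoin replicates 2, 3 and 5 (-0.58, -0.65 and -0.55). Without KO tridocosahexaenoin replicate 4 the count was 2.

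Wy14643 called 0 channel genes in either genotype. Kcna5 read 7.35, 7.92, 7.94, 8.04 and 8.04 in KO hearts given Wy14643, against 6.77 to 8.00 in KO controls, a difference of 0.55 ± 0.16 (adjusted p = 0.188). Without KO control replicate 5, 1 channel gene was called. Kcnh2 differed by -0.31 ± 0.15 in WT and by 0.13 in KO hearts, and the test of that difference gave 0.44 ± 0.19 (adjusted p = 1). For the effect of Wy14643 and for the mean effect of the 4 triglycerides, limma called 0 of 23 channel genes and 0% of all genes as differing between genotypes, with 2 and 1 channel genes at an unadjusted p under 0.05 (4.39% and 4.01% of all genes). In the mean effect of the triglycerides that gene was Kcna5, 0.38 in KO and -0.10 in WT hearts, a difference of 0.49 ± 0.21 (adjusted p = 0.997).

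The triglycerides were given in equal volume and were compared with each other over both genotypes in 6 pairs, each adjusted over all 8238 genes. Trilinolenin against triolein, which differ in the number of double bonds of an 18-carbon chain (3 against 1), called 5 of 23 channel genes (21.7%, against 6.05% of all genes), 3 lower with trilinolenin (3.07% of all genes were) and 2 higher (2.97%). Kcnj5 was lower by 0.57 ± 0.12 (adjusted p = 0.00201), by 0.54 in WT and 0.60 in KO hearts: the 4 WT triolein hearts read 7.87, 7.95, 8.04 and 8.27, all above the trilinolenin hearts. In KO triolein hearts it read 7.50, 7.86, 7.98, 8.00 and 8.29, and the lowest overlapped with trilinolenin. Cacnb2 read 8.88, 9.25, 9.30 and 9.33 with triolein and 8.52, 8.63, 8.75 and 8.85 with trilinolenin in WT hearts, without overlap. In KO hearts it read 8.88, 9.20, 9.24, 9.25 and 9.27 with triolein and 8.33, 8.54, 8.79, 9.11 and 9.28 with trilinolenin, which overlap, and over both genotypes it was lower by 0.43 ± 0.11 (adjusted p = 0.0106). A second Cacnb2 probe set gave -0.46 ± 0.11 (adjusted p = 0.00927). Kcnq1 was lower by 0.37 ± 0.08 (adjusted p = 0.00336), by 0.39 in WT and 0.34 in KO hearts. These 3 calls held in each of the 18 fits that left out 1 heart.

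**Figure D4:**
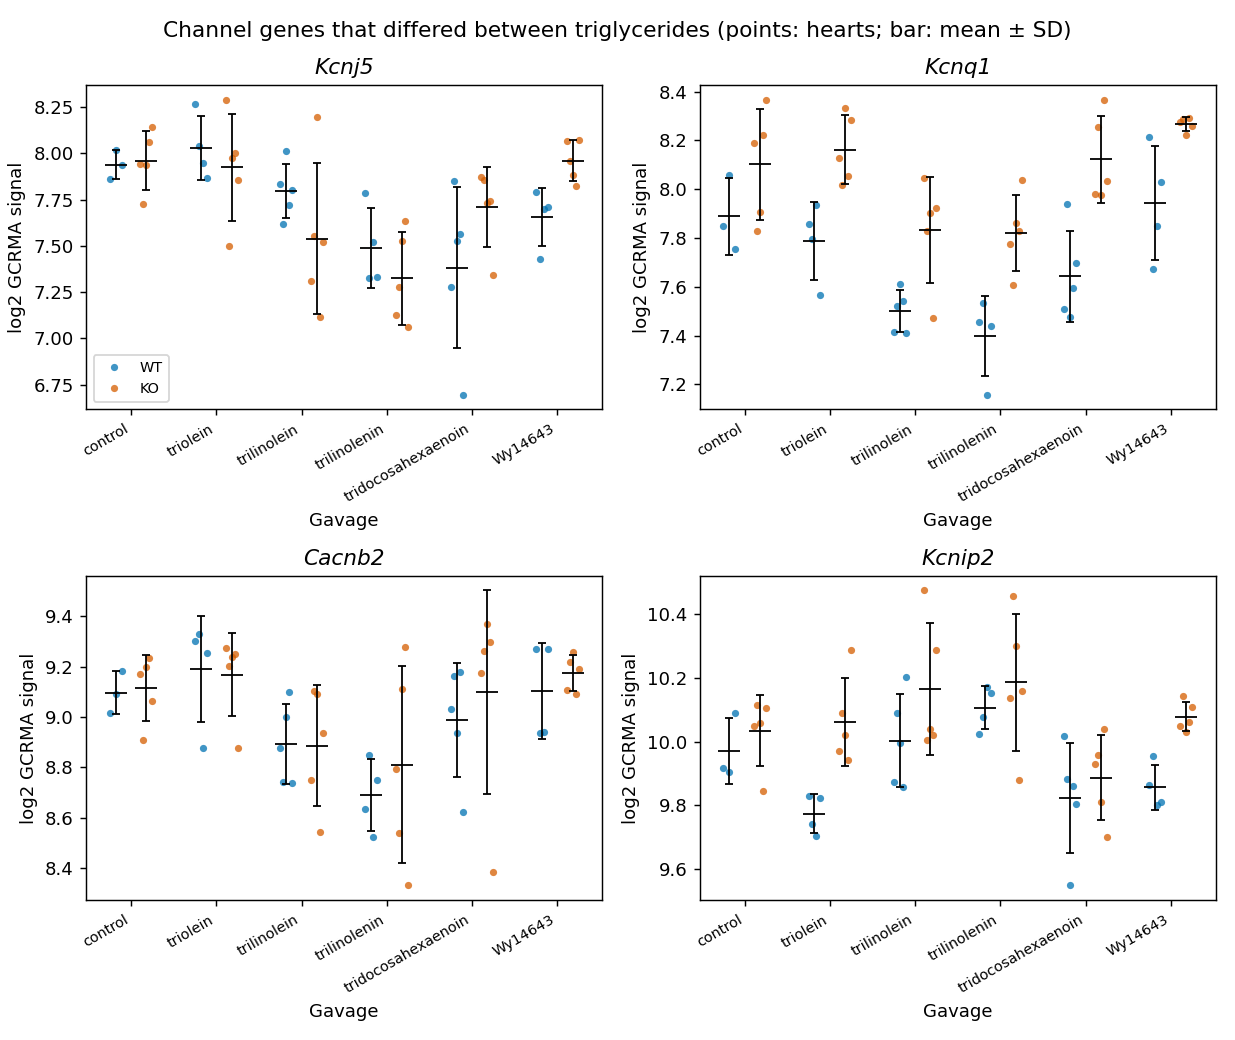
Log2 signal of 4 channel genes in each gavage group (points are hearts, WT blue and KO orange; bars are means ± SD; 3 to 5 hearts per group). Kcnj5, Kcnq1 and Cacnb2 are lower with trilinolenin than with triolein in both genotypes, and Kcnip2 is higher with trilinolenin than with tridocosahexaenoin.

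Kcnip2 was higher with trilinolenin than with triolein by 0.23 ± 0.07 (adjusted p = 0.0283), by 0.33 in WT and 0.12 in KO hearts. In WT hearts it read 10.03, 10.08, 10.15 and 10.17 with trilinolenin against 9.70, 9.74, 9.82 and 9.83 with triolein, without overlap. In KO hearts the ranges, 9.88 to 10.46 and 9.94 to 10.29, overlapped. Cacna1c was higher with trilinolenin by 0.19 ± 0.06 (adjusted p = 0.042), but its second probe set gave -0.13 ± 0.09 (adjusted p = 0.442). Leaving out 1 of the 18 hearts lost the call of Kcnip2 in 8 fits (differences of 0.19 to 0.27 over all fits) and that of Cacna1c in 12 (0.16 to 0.22). The count was 3 without WT trilinolenin replicate 3 or 4, WT triolein replicate 2 or 3, KO trilinolenin replicate 2, or KO triolein replicate 1 or 4.

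Trilinolein, with 2 double bonds, differed from triolein in 2 genes (8.7%, against 1.92%). Kcnq1 was lower by 0.31 ± 0.08 (adjusted p = 0.0234), by 0.29 in WT and 0.33 in KO hearts, and Cacna2d1 was higher by 0.18 ± 0.05 (adjusted p = 0.0493). The Kcnq1 call was lost without WT triolein replicate 2 or 3 or KO trilinolein replicate 4 (-0.31, -0.28 and -0.26), and the Cacna2d1 call in 16 of 19 fits that left out a heart. Between trilinolenin and trilinolein 0 channel genes and 0% of all genes were called, with 2 channel genes at an unadjusted p under 0.05 (5.4% of all genes). There Kcnq1 differed by -0.06, with an interval from -0.21 to 0.10, and Kcnj5 by -0.26, with an interval from -0.49 to -0.03 (adjusted p = 0.899).

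Tridocosahexaenoin, with the longest chain and most double bonds, differed from triolein in 0 channel genes (0.789% of all genes), with 5 at an unadjusted p under 0.05 (11.9% of all genes). The count was 1 without WT triolein replicate 4, WT tridocosahexaenoin replicate 2 or 4, KO triolein replicate 2, or KO tridocosahexaenoin replicate 1 or 4. Kcnj5 came nearest, at -0.43 ± 0.11 (adjusted p = 0.0513), and Kcnq1 differed by -0.09, with an interval from -0.25 to 0.06. Set against trilinolein, 1 gene was called (3.48%): Kcnip2 was lower with tridocosahexaenoin by 0.23 ± 0.06 (adjusted p = 0.028), and the call held in 14 of 20 fits that left out a heart. It was lost without WT trilinolein replicate 2 or 5, WT tridocosahexaenoin replicate 3, KO trilinolein replicate 1 or 5, or KO tridocosahexaenoin replicate 5 (-0.19 to -0.22). Set against trilinolenin, 2 were called (3.01%). Kcnip2 read 9.55, 9.80, 9.86, 9.88 and 10.02 in WT hearts with tridocosahexaenoin, all below the trilinolenin hearts, and 9.70, 9.81, 9.93, 9.96 and 10.04 in KO hearts, which overlap with them. The difference over both genotypes was -0.29 ± 0.06 (adjusted p = 0.00587), -0.28 in WT and -0.30 in KO hearts. Kcnq1 was higher with tridocosahexaenoin than with trilinolenin by 0.27 ± 0.08 (adjusted p = 0.037), a call lost without WT trilinolenin replicate 3 or 4, WT tridocosahexaenoin replicate 2, 4 or 5, KO trilinolenin replicate 1, 2 or 3, or KO tridocosahexaenoin replicate 2 or 4 (0.23 to 0.28).

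Some listed partners and regulators also moved after gavage. Gja1 fell with trilinolenin in WT (-0.62 ± 0.16, adjusted p = 0.0174) and KO hearts (-0.56 ± 0.13, adjusted p = 0.00263) and with trilinolein in KO hearts (-0.51 ± 0.13, adjusted p = 0.0157), and was lower with trilinolenin than with triolein by 0.36 (adjusted p = 0.0192). Cav3, caveolin 3 of the muscle membrane, fell with trilinolenin in KO hearts by 0.29 (adjusted p = 0.00899). Irx4 fell with trilinolenin by 0.82 in WT and 0.95 in KO hearts (adjusted p = 0.0103 and 5.42e-05) and with tridocosahexaenoin by 0.69 and 0.73 (adjusted p = 0.0344 and 0.00487). It also fell with trilinolein in KO hearts, by 0.64 (adjusted p = 0.0109). Klf15, a circadian factor known to regulate Kcnip2, rose with tridocosahexaenoin by 0.80 in WT and 0.72 in KO hearts (adjusted p = 0.0412 and 0.0237) and in KO hearts with trilinolenin by 0.85 (adjusted p = 0.00163) and trilinolein by 0.65 (adjusted p = 0.0368). Gata4, a cardiac zinc finger factor, fell in KO hearts with trilinolenin by 0.81 (adjusted p = 1.75e-05) and with trilinolein by 0.49 (adjusted p = 0.0109). Tbx5 rose with trilinolenin in WT hearts (0.88, adjusted p = 0.0303), Foxo1 rose with it in KO hearts (0.63, adjusted p = 0.0178), and Mef2c fell with tridocosahexaenoin in WT hearts (-0.42, adjusted p = 0.0382). With trilinolenin limma called 1 of 16 partners in WT and 2 in KO hearts (3.41% and 11.9% of all genes). Of 11 regulators it called 1 higher and 1 lower in WT and 2 and 2 in KO hearts. Trilinolein gave 0 of either list in WT (1.25%), and 1 partner and 1 higher and 2 lower regulators in KO hearts (4.32%). Tridocosahexaenoin gave 0 partners, with 1 higher and 2 lower regulators in WT (1.86%) and 1 and 1 in KO hearts (3.54%). With triolein and Wy14643, 0 of the 16 partners and 0 of the 11 regulators were called by limma in either genotype. Of all genes, these gavages called 0.0607% to 1.15%. At an unadjusted p under 0.05 triolein gave 2 partners and 2 regulators in WT and 3 and 5 in KO hearts, and Wy14643 gave 1 and 2 in WT and 3 and 4 in KO hearts. Of all genes, 6.4% in WT and 14.7% in KO hearts passed that level with triolein, and 7.45% and 9.88% with Wy14643. Between triglycerides, trilinolenin gave lower Rrad (-0.62), Irx4 (-0.43), Gata4 (-0.29) and Nkx2-5 (-0.25) than triolein, where 6.05% of all genes were called. Tridocosahexaenoin gave higher Abcc8 (0.28) and lower Gjc1 (-0.22) and Mef2c (-0.32) than trilinolein, where 3.48% were. Of the 11 regulators, 1 was called higher with trilinolein than with triolein, where 1.92% of all genes were called. Another call was 1 regulator lower with tridocosahexaenoin than with trilinolenin, where 3.01% were.

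Kcnj3, the GIRK1 subunit that is rich in atria, varied with the atrial markers from heart to heart. The mean log2 signal of the 5 markers (Nppa, Myl7, Myl4, Sln and Dkk3) fell into a lower cloud of 23 hearts, from 7.52 to 9.79, and an upper cloud of 32, from 10.12 to 11.12, a division made after the values were seen. In the upper cloud Kcnj3 correlated with it at Pearson's r = 0.54 (permutation p = 0.00146) and Spearman's rho = 0.515 (permutation p = 0.00264), with r = 0.406 without the 2 hearts farthest from the median. In the lower cloud r was 0.259 (permutation p = 0.233), rho 0.223 (permutation p = 0.302), and r 0.051 without the 2 farthest hearts, so no relation could be shown there. Kcnj3 was singled out because, of 23 channel genes tested over all 55 hearts, it alone passed Benjamini-Hochberg adjustment (r = 0.565). Its permutation p was 1e-05, the smallest these permutations can give (adjusted 0.00023). The values within the clouds come from the same hearts that singled it out and are no independent test. Deviations from the group means correlated at 0.587, and WT and KO hearts taken alone gave 0.615 and 0.53. For Kcnj5, with adjusted values of 0.571 (r = 0.143) and 0.266 (rho = 0.271), no such relation was called. Of the 5 atrial markers 0 were called by limma in any comparison, with at most 1 at an unadjusted p under 0.05, and they differed by a median of -0.19 between trilinolenin and triolein and of 1.41 between triolein and control in WT hearts. Their part in the differences of Kcnj3 and Kcnj5 was not tested.

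**Figure D5:**
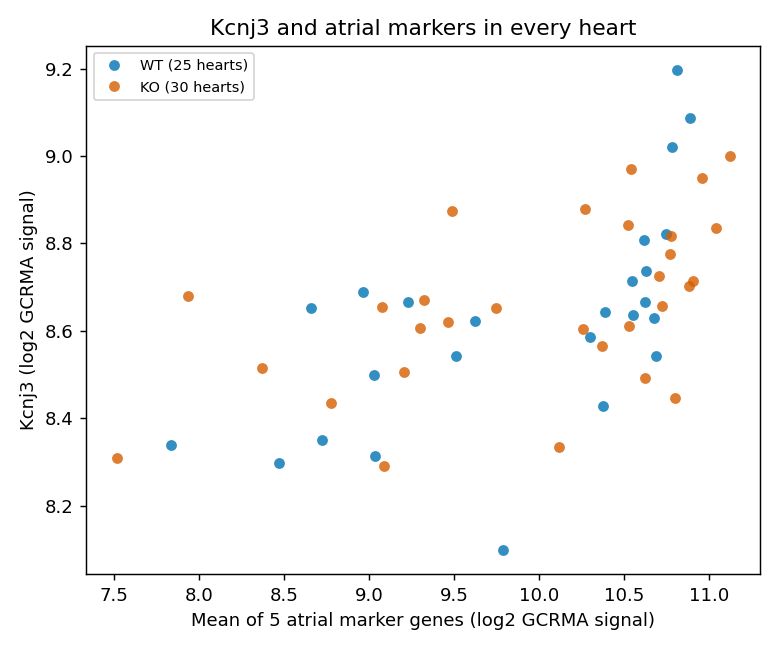
Log2 signal of Kcnj3 against the mean log2 signal of 5 atrial markers in 55 hearts (WT blue, KO orange). Hearts form a lower cloud from 7.52 to 9.79 and an upper cloud from 10.12 to 11.12, with mean Kcnj3 signals of 8.52 and 8.73.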

How the data were processed

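RNA from 55 mouse hearts was measured on Affymetrix arrays, 1 array per heart. The authors deposited log2 signals per probe set, made with GCRMA 2.2.0 per the submitters' processing notes. The scanner software was not given in the sources used here. Deposited values, 0.22 to 14.87, were used unchanged. GCRMA corrects background, quantile-normalizes and summarizes probes, which pulls dim signals together and so can understate their differences. Of 45101 probe sets 34958 had 1 symbol in GEO's platform annotation, and the 932 with several and 9211 with none were not used here. A gene was read from its probe set of highest mean, a choice made for 9012 genes with several.

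One mean for each of 12 groups was fitted with limma 3.58.1 in R 4.3.3 (lmFit and eBayes, 43 residual and 3.253 prior degrees of freedom, no replicate block). Comparisons are contrasts of these means, adjusted by Benjamini-Hochberg over 8238 genes and called at an adjusted p under 0.05. The fit was tested on simulated data. A p-value here reflects only how much hearts of a group vary, and the number of arrays, above all 3 WT controls, limits precision. Correlations used 100000 permutations, two-sided. Groups came from the labels. Alternatives were no minimum, a minimum of 100, the mean of a gene's probe sets, quantile normalization again, array weights, the replicate number as a block, only the groups compared, and each array left out in turn; a gene's other probe sets were added after the data were seen. The members, the lists and the tests were chosen with earlier results of these data known.

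Named genes are the called channel genes of each comparison (at most 8 in a direction), 30 listed heart channel genes, the 3 nearest the minimum on each side, and at most 6 called partners or regulators per comparison. Other genes named were chosen after their values were seen. The same replicate number did not pair hearts: deviations from group means of same-numbered hearts in different groups correlated at a median of 0.00035 and those of other hearts at -0.0088.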

Additional observations from a re-analysis of the deposited data

Results flagged for a closer look

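In groups of 4 or 5 hearts, 16 of 253 sets of values held 1 heart set apart from the rest by Dixon's criterion, spread over 9 genes. Chance sets apart about 1 in 20 groups. Values below are log2 signals, with the nearest other heart of the group second. Cacnb2 was low in WT triolein replicate 3 (8.88 and 9.25), KO triolein replicate 5 (8.88 and 9.20) and KO tridocosahexaenoin replicate 5 (8.38 and 9.18). Kcnj5 was also low in KO tridocosahexaenoin replicate 5 (7.34 and 7.73). Kcna5 was low in KO trilinolein replicate 2 (7.45 and 7.70), KO triolein replicate 2 (7.68 and 7.89) and KO Wy14643 replicate 5 (7.35 and 7.92). Kcnd3 was high in KO triolein replicate 3 (6.31 and 6.14). Kcng2 was high in KO trilinolein replicate 1 (5.85 and 5.81), KO tridocosahexaenoin replicate 4 (6.59 and 5.80) and KO Wy14643 replicate 4 (6.44 and 5.96). Kcnip2 was low in KO control replicate 4 (9.84 and 10.05), Kcnj8 in WT tridocosahexaenoin replicate 5 (7.30 and 7.68) and Kcnq1ot1 in KO control replicate 5 (5.18 and 5.57). Kcnn2 was low in KO trilinolein replicate 4 (3.84 and 4.25) and high in KO triolein replicate 3 (4.96 and 4.25).

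Kcng2 was the only member, in 115 pairs of gene and gavage, for which every treated WT heart moved one way from the control mean and every treated KO heart the other. With triolein it differed from control by 0.31 in WT and by -0.08 in KO hearts, and this difference between genotypes was not tested.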

How the results depend on the processing

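Counts are members called, Kcnv2 and Kcnq1ot1 included, with the reported count first. Between genotypes the call of Kcnv2 is no test, because the choice of members helped to fix it. A count is out of the channel genes tested, 23 unless another number is given, so a higher count need not be a higher share. The share of all genes called is not given for these alternatives. With no minimum, KO against WT over all gavages went from 13 of 23 to 23 of 121 channel genes tested. There, trilinolenin went from 1 to 2 in WT and from 1 to 3 in KO hearts, and tridocosahexaenoin in KO from 1 to 2. Trilinolein against triolein went from 2 to 1 and tridocosahexaenoin against trilinolein from 1 to 0. With a minimum of 100 (14 tested) tridocosahexaenoin in KO gave 0, and against triolein 1 instead of 0. The mean of a gene's probe sets (21 tested) gave 1 for trilinolein and 3 instead of 5 for trilinolenin, both against triolein. Quantile normalization again gave 1 for trilinolein and 1 for tridocosahexaenoin against triolein. Array weights gave 1 for trilinolein in WT and, in KO hearts, 3 for triolein, 2 for trilinolenin and 1 for Wy14643. Fits of only the groups compared gave 1 instead of 4 for KO against WT controls, 0 for trilinolenin in WT and tridocosahexaenoin in KO, 1 for trilinolein against triolein, and 0 for tridocosahexaenoin against trilinolein and, instead of 2, trilinolenin. The replicate block moved 1 count, KO against WT from 13 to 14, where Kcna7 was called (0.11, adjusted p = 0.04); under it Kcnq1 lost its call between tridocosahexaenoin and trilinolenin (0.26, adjusted p = 0.0549), where the count stayed at 2. A pair of values turned with another probe set, chosen after seeing the data: Kcnq1ot1 in KO against WT (0.39) and Cacna1c in trilinolenin against triolein (-0.13); the cause was not tested. Leaving out 1 array gave 12 to 14 for KO against WT, 1 to 4 in controls, 0 to 1 for trilinolenin and for tridocosahexaenoin in WT, and 0 to 0 for the other gavages in WT and for both tests between genotypes. In KO it gave 0 to 2 for triolein and for tridocosahexaenoin, 0 to 1 for trilinolein and for Wy14643, and 1 to 4 for trilinolenin. Between triglycerides it gave 0 to 2 for trilinolein and 3 to 5 for trilinolenin against triolein, 0 to 0 for trilinolenin against trilinolein, 0 to 1 for tridocosahexaenoin against triolein or trilinolein, and 1 to 3 against trilinolenin. The next figures cover the alternatives listed with the methods, other than leaving out an array or changing probe sets. Of the counts, 117 stayed within 1.5 times and 22 did not. Of single-gene results 215 kept their side of the threshold, 26 lost the call and 3 gained it. Of called differences 0 turned in sign. The uncalled difference of Kcnj8 between genotypes went from -0.018 to as high as 0.005 and is among those kept. Precision is limited by signal near background for Kcnv2, Kcnt2 and Kcnn2.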
